A study of Mus musculus with 6 samples.

Results

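The 10 genes described here are *Pax7*, *Pax3* and *Megf10*, which mark or act in satellite cells and their progenitors, and *Dll1*, *Notch1*, *Notch2*, *Notch3*, *Hes1*, *Hey1* and *Heyl* of the Notch pathway. They were chosen by name, and their rows were found in the gene count table through the Ensembl gene IDs of GENCODE release M21. All 10 of them were among the 56262 genes listed, and all 10 were among the 22071 genes with enough counts to test.

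The counts are bulk RNA-seq of the leg muscle of fetal mice (embryonic day 18.5, E18.5), with 3 wild-type (WT) and 3 *SYISL* knockout (KO) samples. *SYISL* is a muscle-expressed long noncoding RNA, and the question of the comparison was which genes differ in fetal muscle that lacks it. No treatment is named for either group, and how the KO line was made is not described in the sources used here. WT fetuses came from WT parents and KO fetuses from KO parents, so the genotype of the fetus and that of its mother cannot be told apart here. Strain and sex are not given, and nothing says whether the samples of a group came from separate litters or were pooled, so each p-value below measures only the spread between these 6 samples.

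Satellite cells are the stem cells of skeletal muscle. They arise late in fetal life from progenitors that express the paired-box factors PAX3 and PAX7, and come to lie under the basal lamina of the muscle fibers. Notch signalling keeps such progenitors from differentiating: a ligand on a neighbouring cell, such as DLL1 on a differentiating myoblast, binds a Notch receptor, whose intracellular domain is cut free, enters the nucleus and joins RBPJ to switch on genes of the HES and HEY repressors. The same pathway is also used by blood vessels, their mural cells, skin and other tissues, and bulk muscle holds all of these.

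The libraries held 82054811 to 102233181 counts. Transcripts of *Synpo2*, the gene at whose locus *SYISL* lies, were 1.58-fold higher in KO (135.5 ± 4.21 against 213.8 ± 18.9 CPM, counts per 1000000 library counts; n = 3 each), and *SYISL* itself has no entry under its own name, so its deletion could not be checked. The tissue label was checked with 12 muscle fiber markers, led by *Myh8* and *Acta1*. All but *Tnnc2* (0.693 CPM in WT, 1.35 CPM in KO) were abundant. Their summed level was 21112 to 23537 CPM in WT and 44443 to 54050 CPM in KO, and 11 of the 12 were higher in KO. Keratinocyte markers, led by *Krt1* and *Krt10*, summed to 16561, 24571 and 18409 CPM over the WT libraries and to 731, 841 and 798 CPM over the KO libraries, with 12 of 12 lower in KO. In WT replicate 2 the keratinocyte sum, 24571 CPM, was above the muscle fiber sum, 21112 CPM. In bulk RNA, fewer cells of a type and less RNA per cell cannot be told apart.

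Of the 10 genes, 1 was higher in KO (*Hey1*) and 4 were lower (*Pax3*, *Notch1*, *Hes1* and *Megf10*) at an adjusted p under 0.05 in the quasi-likelihood test of edgeR. The other 5, *Pax7*, *Notch2*, *Notch3*, *Dll1* and *Heyl*, did not pass. These 5 of 10 stand against 45% of all genes tested, the 4 lower against 23.1% and the 1 higher against 21.9%. *Pax3* alone also passed a fold change over 1.5, the definition of a differentially expressed gene (DEG) used here, which 16.7% of all genes met. In 5 of the 10 genes (*Pax7*, *Pax3*, *Megf10*, *Hes1* and *Hey1*) the WT and KO samples did not overlap, against 55.9% of all genes. With 10 genes, counts of this size beside such shares are not read as particular to them. Their median log2 fold change was -0.11, beside -0.0041 over all genes tested, with a range from -0.72 to 0.34. Log2 fold changes are KO over WT throughout. Counts of called genes in every list, marker lists included, stand beside the same 45% called, 23.1% lower and 21.9% higher of all genes.

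**Figure D1:**
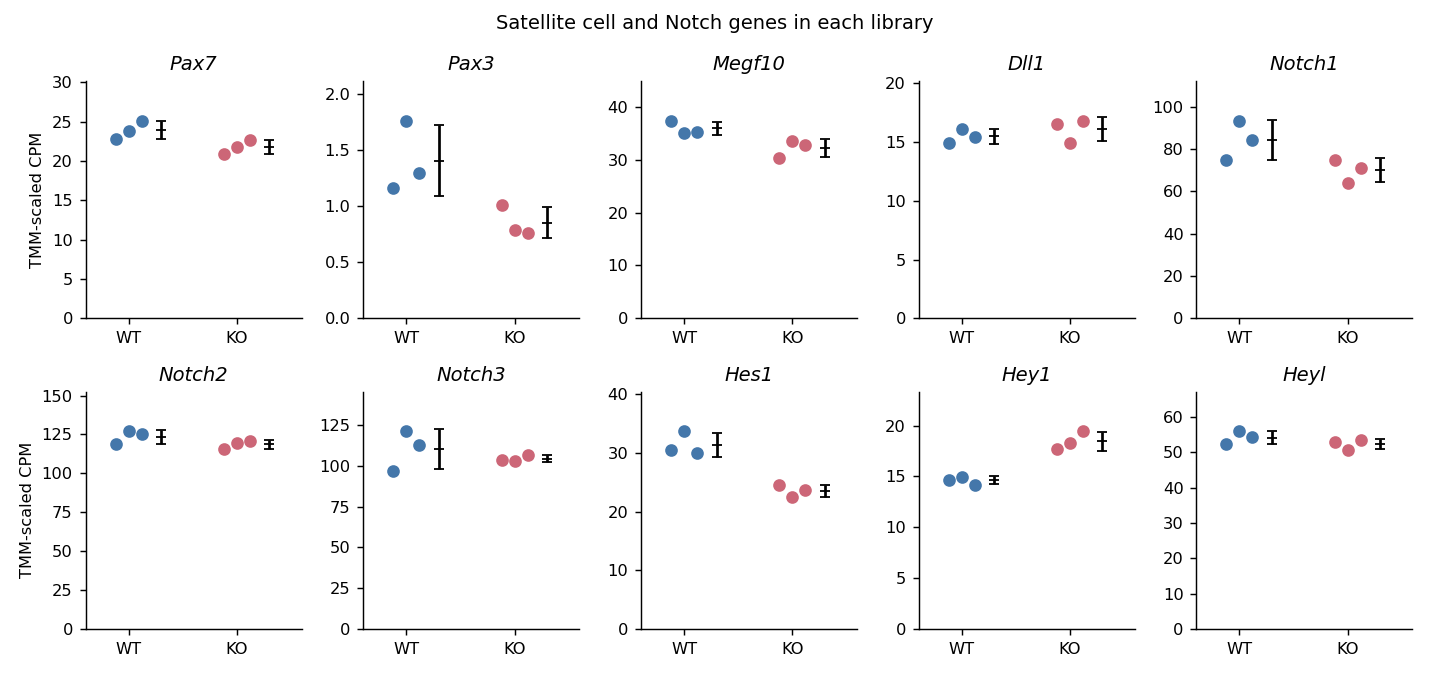
CPM (y axis, from 0, scaled by TMM library factors) of each of the 10 genes in the 3 WT (blue) and 3 KO (red) samples, with the mean and SD beside the points. The KO points of *Pax3*, *Megf10*, *Pax7* and *Hes1* lie below all WT points, those of *Hey1* lie above them, and the groups overlap for *Dll1*, *Heyl* and the 3 receptors.

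*Pax3* and *Pax7* are paralogs, and a read from a stretch identical in both could be counted for either or for neither. The longest stretch shared by their transcripts is 26 bases, shown to let a reader judge this: it runs over the junction of exon 1 and exon 2 in both genes, within the coding sequence. The first 7 bases, in lower case, are the end of exon 1 and the capitals are exon 2.
Pax3, chr1:78195468-78196671, minus strand, intron included in the interval: ctggaagTGTCCACCCCTCTTGGCCA
Pax7, chr4:139830355-139832833, minus strand, intron included in the interval: ctggaagTGTCCACCCCTCTTGGCCA
Among the Notch receptors, the longest shared stretch is 25 coding bases of *Notch1* exon 4 and *Notch2* exon 22.
Notch1, chr2:26484311-26484335, minus strand: accctgccagaatggaggcacctgc
Notch2, chr3:98126171-98126195, plus strand: accctgccagaatggaggcacctgc
Coordinates are of mm10 and the exon numbers are those of a single GENCODE M21 transcript per gene. The other pairs of paralogs examined among the Notch, HEY, DLL and MEGF genes shared at most 24 identical bases, and each of these stretches is shorter than a sequencing read.

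*Pax7* encodes the transcription factor that defines satellite cells and is needed to keep them. The gene (ENSMUSG00000028736.13) lies on the minus strand at chr4:139737062-139833528, with 5860 exon bases. It was measured at 22.8, 23.8 and 25.1 CPM in the WT group and at 20.9, 21.8 and 22.6 CPM in the KO group, from 1960 to 2652 counts. Every KO sample was under every WT sample, but by a narrow gap. The means were 23.9 ± 1.17 and 21.8 ± 0.853 CPM (SD, n = 3 each), the log2 fold change was -0.13 (SE 0.055, 95% interval -0.26 to -0.01), and the edgeR adjusted p over all genes was 0.0763. *Pax7* therefore did not pass the test, although it did so without WT replicate 1 (log2 fold change -0.17, edgeR adjusted p = 0.0333) and with scaling by library size alone (-0.20, edgeR adjusted p = 0.0142). It was further from passing without WT replicate 3 (-0.10, edgeR adjusted p = 0.267) and under upper-quartile scaling (-0.07, edgeR adjusted p = 0.373).

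*Pax3* encodes the paralog that acts earlier, in the progenitors that leave the somites for the limb, and is also used by melanocyte and Schwann cell precursors. The gene (ENSMUSG00000004872.15, minus strand, chr1:78101267-78197134) had 1.16, 1.77 and 1.30 CPM in WT and 1.01, 0.787 and 0.761 CPM in KO, from 110, 146 and 137 counts against 95, 75 and 74 counts. The KO samples were all lower, and KO replicate 1 came closest to the WT range. *Pax3* was 1.64-fold lower in KO (1.41 ± 0.317 against 0.854 ± 0.139 CPM, log2 fold change -0.72, SE 0.19, 95% interval -1.14 to -0.29, edgeR adjusted p = 0.0120). This was the lowest level and the widest interval of the 10 genes. Without KO replicate 3 the log2 fold change was -0.63 and the gene no longer passed (edgeR adjusted p = 0.0545), and without WT replicate 2, the library with the most *Pax3*, it was -0.53, under the fold change of a DEG. Melanocyte markers, led by *Dct* and *Mitf*, summed to 31.7 to 41.0 CPM in WT and 33.9 to 41.1 CPM in KO, with 2 of 6 higher and none lower. Schwann cell markers, led by *Pmp22* and *Erbb3*, summed to 450 to 463 CPM in WT and 536 to 576 CPM in KO, with 7 of 8 higher and 1, *Erbb3*, lower. The median log2 fold change of the melanocyte list was -0.13 and that of the Schwann cell list 0.43. The part of these cells in the *Pax3* value was not tested.

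Within each library, the log2 ratio of *Pax7* to *Pax3*, both per exon length, was 4.37, 3.83 and 4.35 in WT and 4.45, 4.87 and 4.97 in KO. It was higher in all 3 KO samples, by 0.58 on the log2 scale (4.19 ± 0.308 against 4.76 ± 0.280). The 2-sided exact permutation test gave p = 0.1, which is the smallest value that 3 against 3 samples allow, so no such ratio could pass 0.05.

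*Megf10* encodes a transmembrane protein with EGF-like repeats that acts in satellite cells and in the clearance of dying cells. The gene (ENSMUSG00000024593.15, plus strand, chr18:57133090-57297467) was measured at 37.4, 35.1 and 35.2 CPM in WT and at 30.4, 33.6 and 32.7 CPM in KO. The groups did not overlap, and KO replicate 1 was the lowest of the 6. *Megf10* was 1.11-fold lower in KO (35.9 ± 1.30 against 32.2 ± 1.64 CPM, log2 fold change -0.16, SE 0.050, 95% interval -0.27 to -0.04, edgeR adjusted p = 0.0299). It no longer passed without WT replicate 1, WT replicate 3, KO replicate 1 or KO replicate 3 (log2 fold change -0.17 to -0.11, edgeR adjusted p 0.0581 to 0.104), nor under upper-quartile scaling (-0.09, edgeR adjusted p = 0.191). Of 5 other genes of the MEGF family, *Megf9* (51.8 ± 4.06 against 33.6 ± 0.809 CPM, log2 fold change -0.62) and *Megf6* (84.4 ± 7.04 against 72.5 ± 7.49 CPM, -0.22) were lower and none was higher. *Megf6* lost its call without WT replicate 2, WT replicate 3, KO replicate 2 or KO replicate 3 (edgeR adjusted p 0.0896 to 0.173) and under upper-quartile scaling (edgeR adjusted p = 0.140). *Megf11*, the nearest paralog of *Megf10*, was at 1.89 ± 0.0251 and 1.998 ± 0.109 CPM and did not pass.

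*Dll1* encodes a Notch ligand, the one that differentiating myoblasts present to muscle progenitors. The gene (ENSMUSG00000014773.13, minus strand, chr17:15367354-15376872) had 14.9, 16.1 and 15.4 CPM in WT and 16.5, 14.9 and 16.8 CPM in KO. The groups overlapped, and *Dll1* did not pass the test (15.5 ± 0.602 against 16.1 ± 1.02 CPM, log2 fold change 0.06, 95% interval -0.09 to 0.20, edgeR adjusted p = 0.506). That interval holds for TMM scaling only. The log2 fold change was 0.13 with upper-quartile factors and -0.01 by library size alone, and *Dll1* passed under neither. The *Dll1* exons overlap those of *A930024N18Rik* on the opposite strand, which has no entry under its Ensembl ID among the genes listed. The strand setting of the counting is not given.

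Of 7 other genes that encode Notch ligands, *Dll4*, the ligand of arterial and sprouting endothelium, was higher in KO (11.7 ± 0.425 against 14.7 ± 0.695 CPM, log2 fold change 0.34), as was *Dlk1*, a noncanonical ligand of fetal muscle (1900 ± 107 against 2481 ± 158 CPM, 0.38). *Dner*, a ligand known from neurons, was lower (3.03 ± 0.227 against 1.64 ± 0.0706 CPM, log2 fold change -0.88) and was the 1 DEG of the ligands. *Jag1* (53.8 ± 0.486 against 54.8 ± 0.700 CPM) and *Jag2* (54.4 ± 4.12 against 52.3 ± 0.309 CPM) did not pass, and the sign of either log2 fold change turned with the scaling. Under upper-quartile scaling *Jag1* passed as higher (0.10, edgeR adjusted p = 0.0497). Of the 4 ubiquitin ligases that make ligands active by endocytosis, *Neurl1b* (14.6 ± 0.448 against 18.3 ± 0.381 CPM, log2 fold change 0.33) and *Neurl1a* (18.0 ± 0.307 against 22.4 ± 1.03 CPM, 0.32) were higher. *Mib1*, whose product activates ligands in most tissues, was lower (89.1 ± 2.65 against 80.5 ± 1.36 CPM, log2 fold change -0.15), a call that upper-quartile scaling did not keep (-0.08, edgeR adjusted p = 0.143).

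*Notch1* encodes a receptor used by muscle progenitors, endothelium and epidermis. The gene (ENSMUSG00000026923.15, minus strand, chr2:26457903-26516663) was at 74.8, 93.5 and 84.3 CPM in WT and at 75.0, 63.9 and 71.3 CPM in KO. The groups met at the lowest WT and the highest KO sample, which lay at the same level. *Notch1* was 1.2-fold lower in KO (84.2 ± 9.36 against 70.1 ± 5.64 CPM, log2 fold change -0.27, SE 0.082, 95% interval -0.45 to -0.08, edgeR adjusted p = 0.0262). It no longer passed without WT replicate 2, WT replicate 3, KO replicate 2 or KO replicate 3 (log2 fold change -0.27 to -0.19, edgeR adjusted p 0.0651 to 0.0923), nor under upper-quartile scaling (-0.20, edgeR adjusted p = 0.0682). Counts of the transcripts of opposite strand that overlap its exons, *0610009E02Rik* and *Gm13568*, reached at most 54 and 2 per sample.

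*Notch2* and *Notch3* encode receptors that satellite cells also carry, and NOTCH3 is the receptor of vascular mural cells. *Notch2* (ENSMUSG00000027878.11, plus strand, chr3:98013527-98150361) had 119, 127 and 125 CPM in WT and 116, 119 and 121 CPM in KO. *Notch3* (ENSMUSG00000038146.8, minus strand, chr17:32120820-32166852) had 97.1, 121 and 113 CPM in WT and 104, 103 and 107 CPM in KO. The groups overlapped for both genes, and WT replicate 1 was the lowest of all 6 for *Notch3*. Neither passed: the log2 fold change of *Notch2* was -0.06 (95% interval -0.15 to 0.03, edgeR adjusted p = 0.277) and that of *Notch3* was -0.08 (95% interval -0.24 to 0.08, edgeR adjusted p = 0.406). Without WT replicate 1, *Notch3* did pass, as lower in KO (log2 fold change -0.16, edgeR adjusted p = 0.0199), whereas without WT replicate 2 its log2 fold change was -0.0073 (edgeR adjusted p = 0.941). *Notch2* passed with scaling by library size alone (-0.13, edgeR adjusted p = 0.0263) but turned to 0.0092 under upper-quartile scaling.

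*Notch4*, the receptor of endothelium, was higher in KO (24.1, 25.5 and 24.7 CPM in WT against 30.6, 31.0 and 32.6 CPM in KO, log2 fold change 0.34, edgeR adjusted p = 2.93e-04). The groups were well apart. In the same libraries 8 of 10 endothelial markers, led by *Cdh5* and *Pecam1*, were higher and none lower, and their sum was 796 to 829 CPM in WT and 912 to 957 CPM in KO. Of 10 mural cell markers, led by *Acta2* and *Rgs5*, 8 were higher and 1 lower, with a sum of 1155 to 1166 CPM in WT and 1284 to 1347 CPM in KO. The lower 1 was *Acta2* itself (423 against 370 CPM), the most abundant of them. Arterial endothelial markers, led by *Efnb2* and *Gja5*, summed to 146 to 149 CPM in WT and 139 to 145 CPM in KO, with 1 of 5 higher and 1 lower. The part of these cells in the receptor and ligand values was not tested.

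Per exon length, *Notch1* made up 18.6, 19.7 and 18.8% of the summed level of *Notch1*, *Notch2* and *Notch3* in the WT libraries, against 18.3, 15.9 and 17.0% in the KO libraries. Its share was lower in all 3 KO samples, by 1.99 percentage points (2-sided exact permutation p = 0.1, the smallest possible). *Notch3* held 42.5 to 45.0% in WT and 44.5 to 45.0% in KO and *Notch2* 35.3 to 38.9% and 37.2 to 39.1%, so both shares overlapped between genotypes (exact permutation p = 0.3 and 0.4). The log2 ratio of *Dll1* to the summed 3 receptors was -3.00, -3.13 and -3.11 in WT and -2.88, -3.00 and -2.88 in KO, higher by 0.16 in KO (exact permutation p = 0.1). KO replicate 2 lay next to WT replicate 1 in that ratio.

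Receptor maturation and cleavage involve sugar transferases of the fringe family, which tune the choice of ligand, and the γ-secretase complex, which frees the intracellular domain. Of 15 genes of these steps, 2 were higher, 4 were lower and 9 did not pass. *Aph1c*, which encodes a subunit of γ-secretase, was higher (1.24 ± 0.207 against 1.70 ± 0.114 CPM, log2 fold change 0.45) but not without WT replicate 1, WT replicate 2, KO replicate 2 or KO replicate 3 (edgeR adjusted p 0.0572 to 0.0871). Its more abundant paralog *Aph1b*, named after its values were seen, was lower (13.3 ± 0.42 against 11.5 ± 0.43 CPM, log2 fold change -0.21, edgeR adjusted p = 0.0168). Of the fringe genes, *Rfng* was lower (23.7 ± 0.878 against 19.0 ± 0.795 CPM, log2 fold change -0.32), while *Lfng* (20.2 ± 2.21 against 19.8 ± 0.750 CPM) and *Mfng* (8.55 ± 0.0702 against 8.69 ± 0.0883 CPM) did not pass.

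In the nucleus, *Rbpj*, whose product binds DNA in the complex, was at 111.9 ± 0.985 and 116.1 ± 3.29 CPM and did not pass (log2 fold change 0.05, edgeR adjusted p = 0.268), though it did as higher under upper-quartile scaling (0.12, edgeR adjusted p = 0.0306). Of 11 genes of the transcription complex and its cofactors, 2 were higher and 4 lower. The coactivator gene *Maml3* was lower (17.7 ± 1.35 against 13.8 ± 0.121 CPM, log2 fold change -0.36), as was the corepressor gene *Hdac1* (91.7 ± 2.15 against 77.1 ± 3.05 CPM, -0.25). *Kat2b*, an acetyltransferase gene, was higher (26.9 ± 0.414 against 34.2 ± 0.693 CPM, log2 fold change 0.34).

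*Hes1* and *Hey1*, which encode basic helix-loop-helix repressors switched on by Notch, moved in opposite directions. *Hes1* (ENSMUSG00000022528.8, plus strand, chr16:30064384-30067796) had 30.4, 33.7 and 30.0 CPM in WT and 24.6, 22.5 and 23.6 CPM in KO. Each KO sample was well under each WT sample. *Hes1* was 1.33-fold lower in KO (31.4 ± 2.03 against 23.6 ± 1.02 CPM, log2 fold change -0.41, SE 0.059, 95% interval -0.54 to -0.28, edgeR adjusted p = 3.75e-04).

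*Hey1* (ENSMUSG00000040289.8, minus strand, chr3:8663359-8667256) had 14.7, 14.98 and 14.2 CPM in WT and 17.7, 18.3 and 19.4 CPM in KO. Here every KO sample was above every WT sample. *Hey1* was 1.26-fold higher in KO (14.6 ± 0.393 against 18.5 ± 0.911 CPM, log2 fold change 0.34, SE 0.058, 95% interval 0.21 to 0.47, edgeR adjusted p = 0.00119). Of the 10 genes, these 2 kept their call and direction in all 14 other settings, with a log2 fold change of -0.48 to -0.34 for *Hes1* and 0.27 to 0.40 for *Hey1*. Both stayed under the fold change of a DEG.

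The ratio of *Hes1* to *Hey1* within a library, per exon length, was 3.32, 3.61 and 3.38 in WT and 2.23, 1.98 and 1.95 in KO. It was chosen after the values of both genes were seen and is given as a description. The ratio lay in separate ranges by genotype (3.44 ± 0.149 against 2.05 ± 0.155), and it does not depend on how libraries are scaled.

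*Heyl*, a HEY gene expressed in satellite cells and mural cells, among others (ENSMUSG00000032744.4, plus strand, chr4:123233556-123249875), had 52.3, 56.0 and 54.3 CPM in WT and 53.0, 50.7 and 53.5 CPM in KO. The groups overlapped, and *Heyl* did not pass (54.2 ± 1.85 against 52.4 ± 1.48 CPM, log2 fold change -0.05, 95% interval -0.14 to 0.04, edgeR adjusted p = 0.379). Its sign turned under upper-quartile scaling (0.02).

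Of 7 other genes, made up of *Nrarp* and genes of the HES and HEY families, 5 had enough counts to test. Among these 5, 2 were lower and none was higher. *Nrarp*, which encodes a feedback inhibitor of the pathway, was 1.38-fold lower (3.92, 5.58 and 4.96 CPM in WT against 3.58, 3.59 and 3.27 CPM in KO, log2 fold change -0.47), a call lost without KO replicate 3 (-0.42, edgeR adjusted p = 0.0578). *Hes6*, whose product opposes HES1, was lower too (23.9 ± 0.946 against 18.9 ± 1.27 CPM, log2 fold change -0.34). *Hey2*, an arterial gene, did not pass (6.92 ± 0.272 against 6.53 ± 0.618 CPM), nor did *Hes5*, which was scarcely expressed (0.239 ± 0.0189 against 0.270 ± 0.0787 CPM).

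Of 9 genes for proteins that restrain or modify the pathway, 3 were higher and 3 lower. *Dtx3l*, a ubiquitin ligase gene listed here as a member of the Deltex family, was 2.01-fold higher in KO (8.46 ± 0.370 against 17.0 ± 1.43 CPM, log2 fold change 1.004), the only DEG here. Whether its product acts on Notch in this tissue was not tested. *Dtx1* was higher (4.23 ± 0.338 against 5.10 ± 0.358 CPM, 0.27) but lost its call without WT replicate 1, KO replicate 1 or KO replicate 3 (edgeR adjusted p 0.0785 to 0.112) and by library size alone (edgeR adjusted p = 0.107). *Dtx2* was lower (24.4 ± 1.69 against 18.7 ± 0.423 CPM, -0.38), as was *Numb*, which encodes an inhibitor shared out unequally when muscle stem cells divide (62.7 ± 3.21 against 53.6 ± 0.192 CPM, -0.23). Counted together, 54 Notch pathway genes beside the 10 were listed, 52 were tested, 12 were higher, 15 were lower and 25 did not pass. The 51.9% called lies near the 45% of all genes tested, and the median log2 fold change was -0.04.

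**Figure D2:**
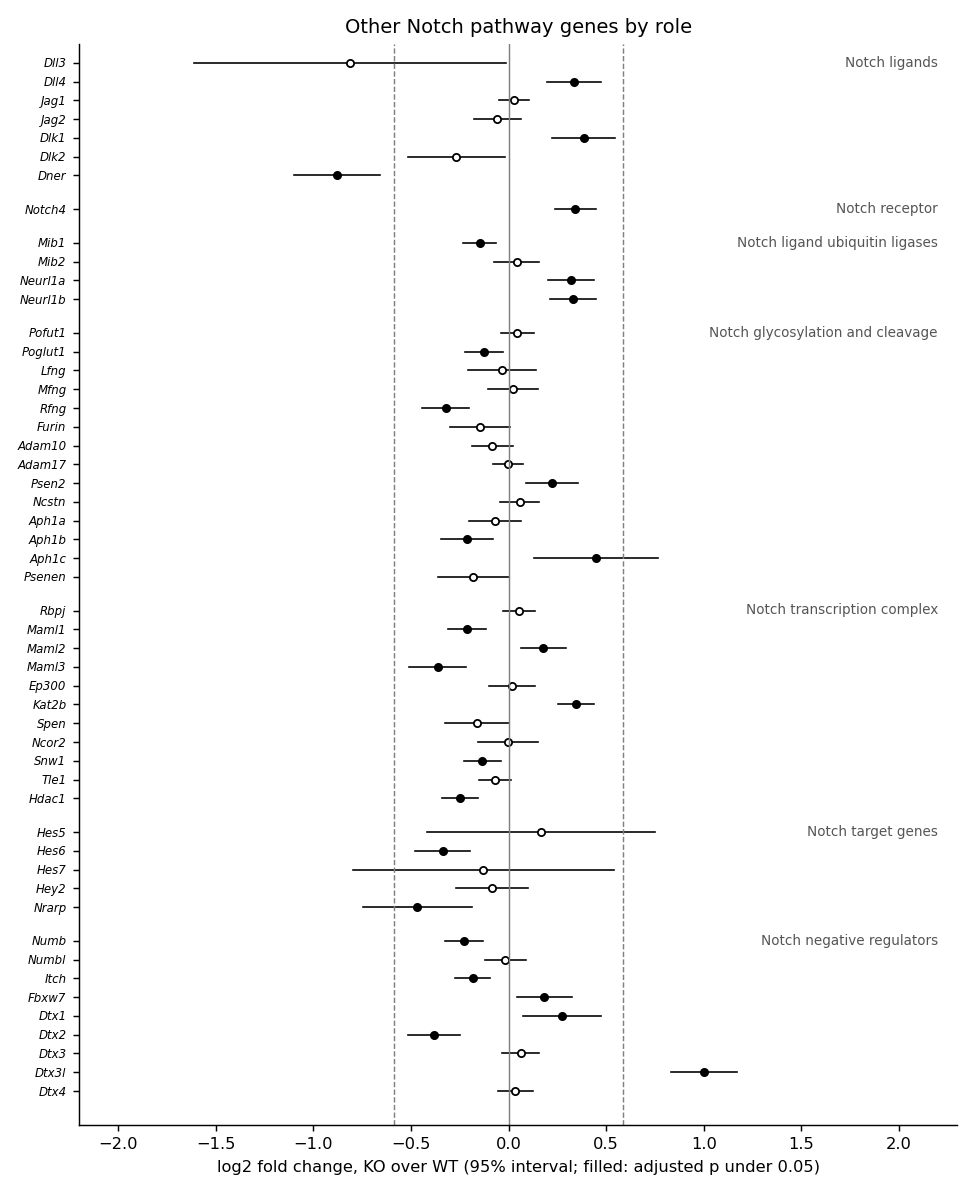
Log2 fold change, KO over WT (x axis), with its 95% interval for the other Notch pathway genes tested, 1 left out, grouped by role, with filled circles for an adjusted p under 0.05 and dashed lines at a fold change of 1.5. Called genes stand on both sides of 0 in most groups, and *Dner* at -0.88 and *Dtx3l* at 1.004 are the 2 DEGs.

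**Figure D3:**
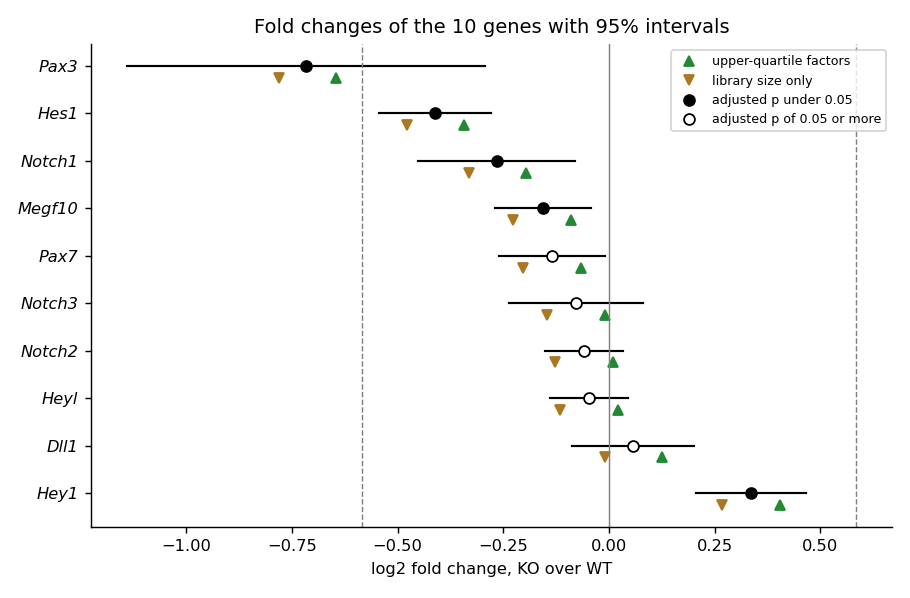
Log2 fold change, KO over WT (x axis), of the 10 genes with TMM scaling (circles, filled for an adjusted p under 0.05) and its 95% interval, beside the values with upper-quartile factors and with library size only (triangles), and dashed lines at a fold change of 1.5. *Hes1*, *Pax3*, *Notch1*, *Megf10*, *Pax7* and *Notch3* stay below 0 and *Hey1* above 0 under all 3 scalings, while *Notch2*, *Heyl* and *Dll1* cross 0 under 1 of them.

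Levels of different genes can be compared per exon length, as CPM per kilobase (kb) of exon. In WT the order was *Hes1* (15.4 ± 0.997), *Notch3* (13.7 ± 1.51), *Notch2* (11.5 ± 0.416), *Heyl* (10.6 ± 0.363), *Notch1* (5.92 ± 0.658), *Megf10* (4.65 ± 0.168), *Hey1* (4.48 ± 0.120), *Pax7* (4.08 ± 0.199), *Dll1* (3.67 ± 0.143) and *Pax3* (0.228 ± 0.0513 CPM per kb, n = 3). Of these neighbours, the samples of *Hes1* and *Notch3* overlapped, as did those of *Megf10* and *Hey1*.

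In KO *Notch3* was first (12.9 ± 0.247 CPM per kb), followed by *Hes1* (11.6 ± 0.499), *Notch2* (11.01 ± 0.254), *Heyl* (10.3 ± 0.289), *Hey1* (5.65 ± 0.279), *Notch1* (4.92 ± 0.396), *Megf10* (4.17 ± 0.212), *Dll1* (3.82 ± 0.242), *Pax7* (3.72 ± 0.146) and *Pax3* (0.138 ± 0.0225). Neighbours that overlapped were *Hes1* and *Notch2*, *Megf10* and *Dll1*, and *Dll1* and *Pax7*. *Hey1* stood below *Notch1* in all 3 WT samples and above it in all 3 KO samples. *Pax3* was last in both genotypes by a wide gap.

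**Figure D4:**
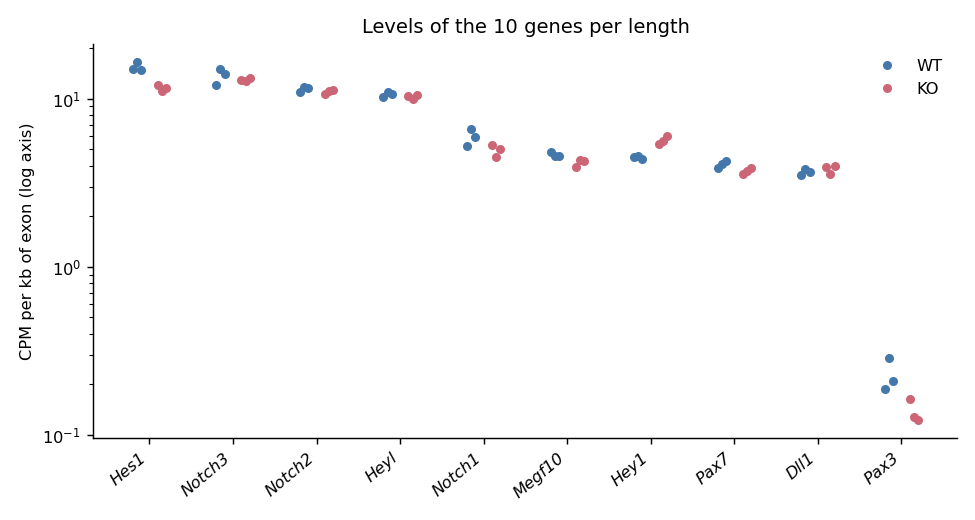
CPM per kb of exon (y axis, log scale) of the 10 genes in each WT (blue) and KO (red) sample, ordered by the WT mean. *Hes1* and the receptor genes *Notch3* and *Notch2* stand at the top, and *Pax3*, at 0.123 to 0.286 CPM per kb, lies far below the rest.

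Other genes of satellite cells and their progenitors moved in both directions, more often higher in KO. Of 36 listed, 16 were higher, 4 were lower and 16 did not pass, which is 55.6% called beside 45% of all genes. The 16 of 36 higher stand beside 21.9% of all genes and the 4 of 36 lower beside 23.1%. Of the 36 log2 fold changes, 25 were above 0, and the median was 0.09. These genes are not exclusive to satellite cells, and the part of other cells in these counts was not tested. *Myf5*, which marks committed satellite cells, was at 11.3, 12.1 and 10.6 CPM in WT and 9.29, 11.8 and 11.96 CPM in KO and did not pass (edgeR adjusted p = 0.791). The groups overlapped, with KO replicate 1 lowest.

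*Cdh15*, the gene of M-cadherin, was at 67.2, 71.4 and 72.1 CPM in WT and 63.6, 65.9 and 66.8 CPM in KO. All KO samples were lower by a narrow gap, and like *Pax7* it did not pass (log2 fold change -0.10, edgeR adjusted p = 0.0679), except without WT replicate 1 (-0.14, edgeR adjusted p = 0.0249) or by library size alone (-0.17, edgeR adjusted p = 0.00634). *Calcr*, the calcitonin receptor gene of quiescent satellite cells, passed as lower (2.32 ± 0.267 against 1.83 ± 0.185 CPM, log2 fold change -0.34, edgeR adjusted p = 0.0463). This call was lost without WT replicate 1, WT replicate 3, KO replicate 1 or KO replicate 3 (edgeR adjusted p 0.104 to 0.177) and under DESeq2 (adjusted p = 0.0808).

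The 2 DEGs of that list were *Barx2* and *Des*. *Barx2*, a homeobox gene expressed in satellite cells and in epidermis, was 4.92-fold lower in KO (19.0, 24.7 and 18.3 CPM in WT against 4.28, 4.46 and 3.84 CPM in KO, log2 fold change -2.30). The part of epidermal RNA in this value was not tested. *Des*, the gene of desmin, which fibers express as well, was 2.09-fold higher (876 ± 6.72 against 1826 ± 227 CPM, log2 fold change 1.06) beside the 2.25-fold higher sum of the fiber markers. *Eya1*, which encodes a transcriptional cofactor, was higher as well (8.86 ± 0.170 against 12.6 ± 1.30 CPM, 0.50).

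Of 4 collagen genes known as Notch and RBPJ targets of muscle stem cells, 3 were higher and 1 did not pass. *Col5a3* (275 ± 4.26 against 365 ± 15.5 CPM, log2 fold change 0.41), *Col6a1* (1910 ± 28.4 against 2375 ± 44.5 CPM, 0.31) and *Col6a2* (1612 ± 20.4 against 1935 ± 54.3 CPM, 0.26) are made by fibroblasts too. Markers of fibroblasts and fibro-adipogenic progenitors, led by *Col1a1* and *Col3a1*, summed to 28519 to 31503 CPM in WT and 34693 to 35853 CPM in KO, with 5 of 9 higher and none lower. Their part in the collagen values was not tested.

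All 6 genes of myogenic commitment and fusion passed, 3 in each direction, beside 45% of all genes called, 23.1% lower and 21.9% higher. *Myod1*, which commits progenitors to the muscle lineage, was lower (55.0, 62.0 and 58.0 CPM in WT against 51.3, 49.97 and 49.1 CPM in KO, log2 fold change -0.22), as was *Myog*, which starts differentiation (139.9, 150.4 and 150.2 CPM against 126.2, 128.1 and 123.1 CPM, -0.22). The groups did not overlap for either gene. Of the fusion genes, *Mymx* was lower (16.4 ± 1.17 against 11.5 ± 1.61 CPM, log2 fold change -0.51) and *Mymk*, named after its values were seen, was higher (79.4 against 92.5 CPM, 0.22). *Myf6*, which is expressed in fibers, was higher (38.2 ± 1.0 against 67.5 ± 5.97 CPM, log2 fold change 0.82), and so was *Mef2c*, a factor of differentiated muscle (392 ± 17.3 against 482 ± 15.1 CPM, 0.30).

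The satellite cell and Notch values stand beside large differences in the make-up of the RNA. The muscle fiber sum was 2.25-fold higher in KO and the keratinocyte sum, led by *Krt1* and *Krt10*, was 25.1-fold lower. Single keratinocyte markers differed widely, from *Trp63* (2.54-fold lower), *Krt5* (3.89-fold) and *Krt14* (6.01-fold) to *Krt1* (44.4-fold) and *Krt10* (73.6-fold). Macrophage markers (led by *Mrc1* and *Csf1r*) were 1.54-fold higher in sum with 4 of 6 called higher and none lower. Proliferation markers (led by *Mki67* and *Top2a*) summed to 1147 ± 17.8 against 1018 ± 50.7 CPM with 7 of 10 lower and none higher. In the 3 WT samples, 6 of the 10 genes (*Pax3*, *Notch1*, *Notch2*, *Notch3*, *Dll1* and *Heyl*) had the sample order of the keratinocyte sum, with WT replicate 2 at the top and WT replicate 1 at the bottom. In the 3 KO samples 1 of the 10, *Megf10*, had that order and 2, *Notch1* and *Hes1*, had the opposite one. *Pax7* had neither order in either group. The share of all genes tested with such an order was not counted, so these numbers are not read as particular to the 10 genes. The part of epidermal RNA, or of the larger share of fiber RNA, in the fold changes of the 10 genes was not tested.

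**Figure D5:**
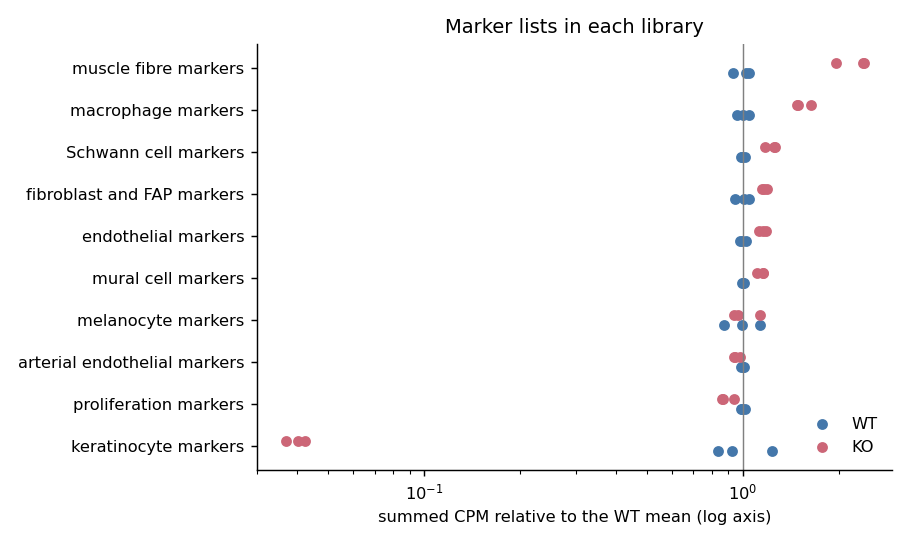
Summed CPM of each marker list in each WT (blue) and KO (red) sample, relative to the WT mean of that list (x axis, log scale). The KO samples lie 2.25-fold above WT on average for muscle fiber markers and 25.1-fold below for keratinocyte markers, and the other lists lie within 1.54-fold of WT on average.

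Genes whose pattern over the 6 samples was most like that of 4 of the 10 genes were found by Pearson's r of log2 CPM among 12370 genes with a mean of at least 5 CPM. With so many genes and 6 points, which share library and genotype, high values are easily met, and they are given as descriptions. *Pax7* was most like *Mmp13* (0.976), *Ppp2r5d* (0.973) and *Tigar* (0.972), and *Megf10* most like *Cnot7*, *Herc4* and *Snhg6* (0.995 to 0.996). *Notch1* was most like *Tfip11*, *E2f8* and *Cblb* (0.997 to 0.998), and *Notch3* most like *Bag6* (0.993), *Polr2m* (0.987) and *Trpc4ap* (0.986). None of these genes is in the lists of Notch or satellite cell genes.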

How the data were processed

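RNA-seq counts of E18.5 mouse leg muscle from 3 WT and 3 *SYISL* KO samples were used. Per the labels and the study's methods, the authors trimmed paired-end reads with Trim Galore 0.6.6, mapped them to mm10 with HISAT2 2.2.1 and counted them per gene with featureCounts 2.0.1. The deposited values are whole-number counts for each gene, not normalized. Gene annotation, strand setting and whether reads or pairs were counted are not given in the sources used here. Without a known strand setting, reads of overlapping genes on opposite strands cannot be told apart. Gene symbols, positions and exon lengths came from GENCODE M21.

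Counts were tested in R 4.3.3 with edgeR 4.0.16 (filterByExpr, TMM factors, quasi-likelihood F-test on genotype), with Benjamini-Hochberg adjustment over the 22071 genes tested. The call was an adjusted p under 0.05, and a DEG also had a fold change over 1.5. SE is the log2 fold change divided by the root of F, and the 95% interval uses the moderated degrees of freedom and is not adjusted for the number of genes. CPM values use TMM-scaled library sizes. Ratios within a library were compared by a 2-sided exact permutation test. The fit was also run on simulated data in which 200 genes changed, far fewer than were called here. That run cannot show how the fit behaves under the large differences in RNA make-up of these libraries. Depth was 82054811 to 102233181 counts per sample, and each library's counts differed from those of its replicates by more than sampling noise.

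The 10 genes, the gene lists and the tests were chosen with earlier results of these data known. Named beside the 10 were the 3 genes of each list with the largest log2 fold change among those called with a mean of at least 1 CPM, fixed genes of interest (such as *Notch4*, *Jag1*, *Rbpj* and *Myf5*), the 2 most abundant genes of each marker list, the 3 most alike genes for *Pax7*, *Notch1*, *Notch3* and *Megf10* (log2 CPM, prior count 2), and *Synpo2*. The values of 1 gene that this rule names are not reported here, although it is counted with its list. Marker lists cover muscle fibers, endothelium, arterial endothelium, mural cells, keratinocytes, melanocytes, Schwann cells, fibroblasts, macrophages and proliferation. The alternatives were RLE and upper-quartile factors, library size only, no filter, at least 10 counts in every sample, DESeq2 1.42.0, limma-voom (limma 3.58.1), a replicate block, other fold thresholds, ratios of raw counts without length, and leaving out each sample.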

Additional observations from a re-analysis of the deposited data

How the results depend on the processing

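Of 140 values of the 10 genes under 14 alternatives, 120 kept direction and call, 13 lost the call, 4 gained it and 3 reversed. Of 602 values of 43 other named genes these numbers were 564, 24, 4 and 10. Upper-quartile factors moved the median log2 fold change of all genes by 0.07 and library size only by -0.07. Genes called higher and lower numbered 4838 and 5098 with TMM, 6077 and 3719 with upper-quartile factors, and 3730 and 6475 by library size. Reversed under upper-quartile factors were *Notch2* (0.0092), *Heyl* (0.0206), *Jag2* (0.0119), *Lfng* (0.0381) and *Myf5* (0.0303), and by library size *Dll1* (-0.0104), *Jag1* (-0.0408), *Rbpj* (-0.0138) and *Mfng* (-0.0443). With a sample left out, *Hes5* ranged from -0.0645 (without KO replicate 1) to 0.361, *Lfng* from -0.0794 to 0.0603 (without WT replicate 2) and *Myf5* from -0.0915 to 0.0772 (without KO replicate 1; 0.0080 without WT replicate 2). None of these genes had passed the test. Calls among the 10 genes numbered 5, but 3 with upper-quartile factors, 7 by library size and 2 to 6 with a sample left out. Their DEGs numbered 1, but 0 to 1 with a sample left out (0 without WT replicate 2 or KO replicate 3), 0 at a fold change over 2 and 5 with no fold threshold. The 2 DEGs of the other Notch genes became 1 at a fold change over 2 and 27 with no fold threshold, and the 2 of the other satellite cell genes became 20 with no threshold. The sources used here do not say whether the replicate numbers pair the samples. Deviations of same-numbered WT and KO samples from their group means correlated at -0.20, -0.13 and 0.05. Such values cannot show whether samples were handled in pairs. With a replicate block, 3 of the 10 genes were called, without *Notch1* (edgeR adjusted p = 0.0652) and *Megf10* (0.0700). The cause of these changes was not tested. DESeq2 tested 25032 genes and called 8962. *Pax3*, at 74 to 146 counts per sample, had the widest interval of the 10 genes.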
